A study of Mus musculus with 10 samples.

Results

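The small nuclear RNAs (snRNAs) and small nucleolar RNAs (snoRNAs) recovered with MOV10 from mouse testis at postnatal day 21 were described beside their levels in wild type and Mov10-/- testes of the same age. Genes were selected on their CLIP-seq reads: each had the GENCODE M21 biotype snRNA, snoRNA or scaRNA (a small RNA of the Cajal body) and at least 1 read summed over the 4 MOV10 CLIP-seq libraries. This took in 85 of the 2943 genes of these biotypes, among 55421 genes counted. They were 68 of 1385 snRNA genes, 16 of 1507 snoRNA genes and 1 of 51 scaRNA genes. Since the CLIP-seq reads chose the genes, those reads are given as a description, with no test. At the threshold, 37 of the 85 genes held exactly 1 read in all, and the 2858 other genes of the biotypes held 0.

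MOV10 is an RNA helicase. In CLIP-seq, testicular cells of P21 mice were irradiated with UV light to link proteins to the RNA they touch, RNA was trimmed with RNase T1, and MOV10 with its RNA was pulled down with an antibody. The 4 CLIP-seq libraries are replicates 1, 2, 3 and 5; per the study they were made from wild type testes, with RNA cut from the main radioactive band and from just above it, and which library came from which position is not given in the sources used here. No library from a control antibody was analysed here. RNA-seq used paired testes of 3 wild type mice (replicates 1 to 3) and 3 Mov10-/- mice (replicates 2 to 4), with libraries made by a stranded mRNA kit, which selects poly(A) tails. The mutant allele lacks an internal block of exons, removed in the whole body with Actb-Cre, and homozygotes came from crosses of heterozygous mice. Per the study the mutant mice are on a mixed background of 129, C57BL/6 and FVB.

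snRNAs are short, abundant RNAs that, with their proteins, form the spliceosome. U1 pairs with the 5′ splice site, U2 with the branch point, and U5 holds the exon ends, while U6 pairs first with U4 and then with U2 in the active spliceosome. U12 takes the place of U2 in the minor spliceosome, and U7 directs 3′ end processing of histone mRNAs. snoRNAs guide chemical changes in ribosomal RNA: C/D snoRNAs guide 2′-O-methylation, H/ACA snoRNAs guide pseudouridylation, and scaRNAs guide both in snRNAs. Most mammalian snoRNAs are cut from introns of host genes, and mature forms of these RNAs lack a poly(A) tail, so a poly(A)-selected library holds few of their reads.

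Class was read from the gene's name for 12 of the 85 genes and from the best BLAST match to a named gene (identity and cover of at least 70%) for 62; 11 matched none well enough and are called unclassed. The sequences below are those of genes that carried most reads among U1, U2, unclassed and C/D genes, and of the named U1 gene, from the GENCODE M21 transcripts of GRCm38, 5′ to 3′ with T for U. In U1, capitals in Rnu1a1 mark ACTTACCTG, the stretch that pairs with the 5′ splice site, and ATTTGTGG, which holds the Sm protein site, found in 3.98% and 4.99% of 1383 snRNA genes and in 20 and 21 of the 26 U1 genes with reads. Capitals in Gm22513 and Gm24305 mark their only difference from Rnu1a1, T60C and A26G (positions counted from 1 at the 5′ end, Rnu1a1's base first). Rnu1a1 lies at chr11:87422867-87423030 (plus strand), Gm22513 at chr12:54696782-54696945 (plus) and Gm24305 at chr12:54734555-54734718 (minus).
Rnu1a1: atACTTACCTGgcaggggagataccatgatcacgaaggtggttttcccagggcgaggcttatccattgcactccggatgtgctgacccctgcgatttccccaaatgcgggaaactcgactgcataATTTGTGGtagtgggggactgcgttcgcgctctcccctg
Gm22513: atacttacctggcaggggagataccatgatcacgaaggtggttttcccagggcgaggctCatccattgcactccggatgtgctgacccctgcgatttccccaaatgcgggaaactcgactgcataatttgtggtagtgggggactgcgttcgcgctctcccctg
Gm24305: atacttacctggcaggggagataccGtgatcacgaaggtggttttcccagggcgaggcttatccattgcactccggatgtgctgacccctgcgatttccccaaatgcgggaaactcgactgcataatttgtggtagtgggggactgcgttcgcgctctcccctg

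For U2, capitals mark the 4 bases of Gm25360 (chr1:72226240-72226430, plus) that differ from Rnu2-10, C78T, A95G, G109C and C154T.
Gm25360: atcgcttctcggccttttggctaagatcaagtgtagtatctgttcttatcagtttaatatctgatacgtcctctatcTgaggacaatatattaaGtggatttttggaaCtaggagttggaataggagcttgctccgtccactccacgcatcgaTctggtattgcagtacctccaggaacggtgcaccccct

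Gm25541 (chr2:27539805-27539930, minus) is shown because it led the unclassed genes; its letters are those known for U6atac, the counterpart of U6 in the minor spliceosome, an identity that no annotation used here gives. In the C/D snoRNA Snord17 (chr2:144265979-144266216, minus), capitals mark the C box TGATGA and the D box CTGA. In Gm24119 (chr10:91118291-91118536, minus), an unclassed snoRNA, capitals mark ACA near the 3′ end. Of 8 unclassed snoRNA or scaRNA genes, Gm24119, Gm22748, Gm22154 and Gm23532 had ACA in the last 8 bases, and Gm22486, Gm25835 and Gm22009 had TGATGA in the first 20 and CTGA in the last 15. Over all 1558 snoRNA and scaRNA genes these shares were 47.6% and 19.9%; among named genes, ACA was so placed in 95.2% of 42 H/ACA genes and 7.34% of 109 C/D genes, and the C/D boxes in 63.3% of C/D and 0% of H/ACA genes.
Gm25541: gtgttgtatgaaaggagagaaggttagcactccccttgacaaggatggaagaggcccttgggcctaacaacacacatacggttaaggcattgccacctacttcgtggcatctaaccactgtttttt
Snord17: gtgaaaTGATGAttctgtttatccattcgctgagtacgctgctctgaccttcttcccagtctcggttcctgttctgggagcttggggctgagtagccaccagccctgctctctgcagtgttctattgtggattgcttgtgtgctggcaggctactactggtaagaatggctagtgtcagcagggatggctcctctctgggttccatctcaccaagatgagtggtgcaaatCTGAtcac
Gm24119: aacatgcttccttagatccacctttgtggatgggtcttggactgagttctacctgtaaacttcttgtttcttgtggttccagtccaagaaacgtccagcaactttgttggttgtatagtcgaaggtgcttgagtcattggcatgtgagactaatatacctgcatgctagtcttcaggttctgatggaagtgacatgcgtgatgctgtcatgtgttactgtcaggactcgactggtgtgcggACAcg

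CLIP-seq libraries held 3404 to 4934 reads on genes, so that 1 read was 203 to 294 RPM (reads per 1000000 reads on genes). These were 0.0260% to 0.0521% of all their reads, of which 99.5% to 99.6% did not align. RNA-seq libraries held 5083407 to 9230540. The first 3 CLIP-seq replicates were closer to each other than sampling noise allows (chi-square over degrees of freedom 0.219 to 0.237 on genes with a summed count of 5 or more, against 1.63 to 1.93 for each with replicate 5). They were therefore averaged and counted as 1 sample beside replicate 5. Reads that align to several places were not counted: these were 41.1% to 44.4% of aligned CLIP-seq reads and 9.50% to 10.3% of aligned RNA-seq reads. Near-identical copies can share such reads, so the level of any 1 gene among them is uncertain, as is the share of a class with many copies. In testis, germ cell markers (Ddx4, Dazl and 5 others) summed to 1007 to 1115 RPM in all 6 RNA-seq libraries, and 4 of 5 Sertoli and 4 of 5 Leydig markers were above 10 RPM in every library (Sox9 at 48.7 to 95.6 and Cyp17a1 at 43.9 to 119.9 RPM). The others, Rhox5 (Sertoli) and Insl3 (Leydig), were at 0 to 0.125 and 0.132 to 0.787 RPM. Mov10 itself (chr3:104794836-104818563, minus) had 969, 707 and 1115 reads in wild type and 235, 130 and 217 in Mov10-/- libraries; the log2 difference was -1.999 (± 0.12 SE, edgeR adjusted p = 0.00552).

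MOV10 CLIP-seq reads on the 85 genes numbered 115, 100, 94 and 128 in replicates 1, 2, 3 and 5. They made up 2.91% (95% Wilson interval 2.43 to 3.48), 2.92% (2.41 to 3.54), 2.76% (2.26 to 3.37) and 2.59% (2.19 to 3.08) of reads on genes, a mean of 2.73% over the 2 samples. Intervals cover counting error only. With reads outside genes and ambiguous reads in the total, the mean share was 0.369%. In wild type RNA-seq the same genes held 32.1, 27.9 and 49.6 RPM, 747 times less than in CLIP-seq. That ratio is raised by the choice of genes with CLIP-seq reads, and it was 142 over the wider total and 374 over Mov10-/- RNA-seq. Over all 2943 genes of the biotypes, which the choice does not touch, the wild type libraries held 164, 133 and 241 RPM, and the ratio was 152. The 2 assays select RNA differently (poly(A) tails in RNA-seq alone), and the part of that difference in the ratio was not tested.

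snRNAs carried most of the reads. The 68 snRNA genes had 91, 87, 79 and 116 reads in replicates 1, 2, 3 and 5 (2.31%, 2.54%, 2.32% and 2.35% of reads on genes), and the 17 snoRNA and scaRNA genes had 24, 13, 15 and 12 (0.608%, 0.380%, 0.441% and 0.243%). In RNA-seq the order over all genes of the biotypes was the other way round: wild type libraries averaged 59.1 RPM on snRNA genes and 120 RPM on snoRNA and scaRNA genes. The ratio of CLIP-seq to wild type RNA-seq over all genes of a group was thus 401 for snRNAs and 29.9 for snoRNAs and scaRNAs. Of the 85 genes, 19 had a read in all 4 CLIP-seq libraries, 25 were read in replicate 5 and also in at least 1 of replicates 1 to 3, 35 were read in replicates 1 to 3 alone and 25 in replicate 5 alone.

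**Figure D1:**
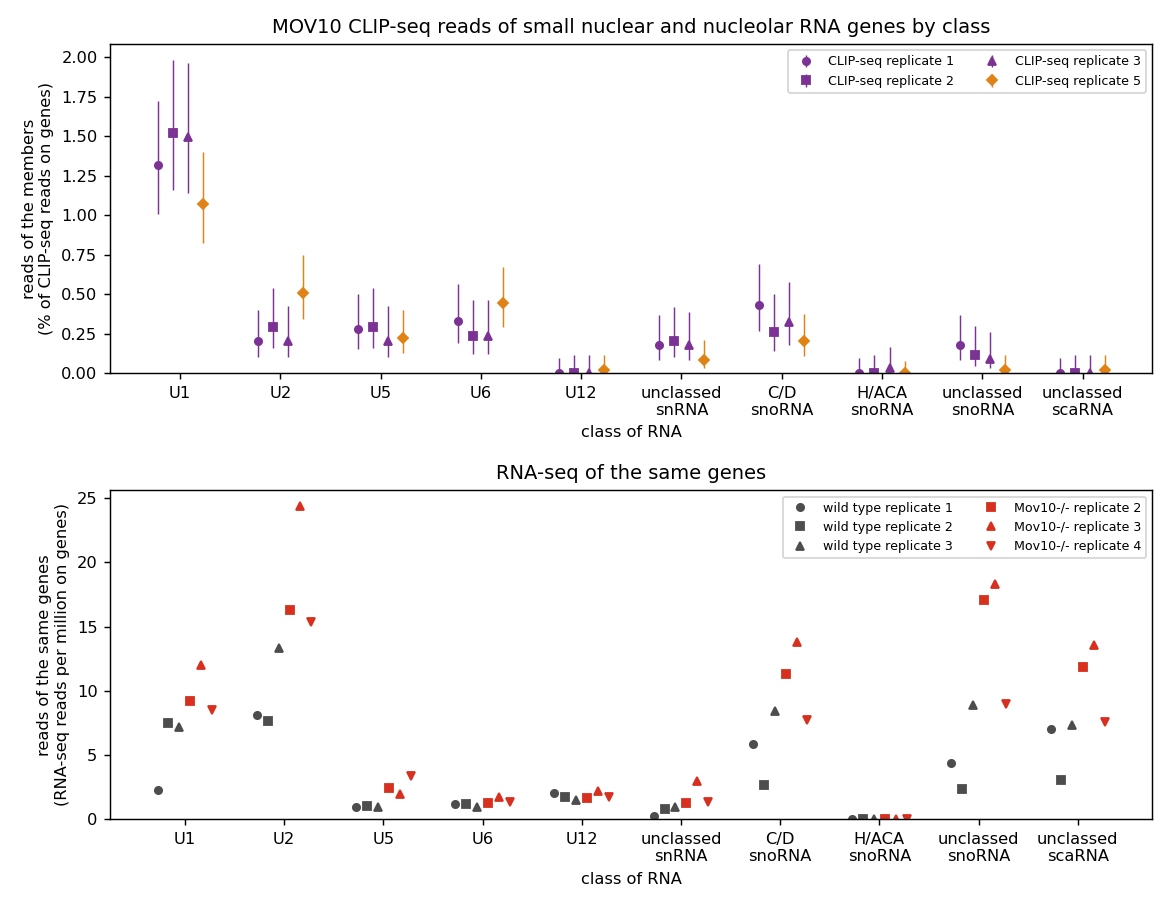
Share of CLIP-seq reads on genes (upper, %, with 95% Wilson intervals per library) and RNA-seq level (lower, RPM) summed over the 85 genes by class, 1 point per library. U1 leads in all 4 CLIP-seq libraries (1.07% to 1.52%), and U2 is the highest snRNA class among the 85 genes in each RNA-seq library, whereas over all genes of a class wild type libraries average 20.5 RPM for U6, 14.4 for U1 and 11.5 for U2.

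U1 led, with 52, 52, 51 and 53 CLIP-seq reads (1.317%, 1.519%, 1.498% and 1.074% of reads on genes) over 26 of the 166 U1 genes in the files. Its share of the counted reads was above that of each other class in every library. Its lowest interval bound (0.822%, replicate 5) lay above the highest bound of U2, U5, U6 and C/D (0.747%, U2 in replicate 5). Those bounds cover counting error only and are no test, since the reads chose the genes. The loss of reads shared by copies can differ between classes and was not measured. U2 followed in replicate 5 with 25 reads (0.507%) but had 8, 10 and 7 reads (0.203%, 0.292% and 0.206%) in replicates 1, 2 and 3. U6 had 13, 8, 8 and 22 reads over 28 of 865 genes, and U5 had 11, 10, 7 and 11 over 5 of 10 genes. C/D snoRNAs had 17, 9, 11 and 10 over 8 of 201 genes. For U2, U5, U6 and C/D the intervals overlapped within every library, so no order among them is read from these counts.

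The other classes had few reads or none. H/ACA snoRNAs had 1 read, in replicate 3, on Gm23592, a match to Snora17, though 726 genes fell in this class and held 30.5 RPM in wild type RNA-seq. scaRNA-named genes (18) and U7 (59 genes) had 0 reads in each CLIP-seq library, which allows up to 3 reads or 608 to 881 RPM per library. Rnu12, the U12 gene of the minor spliceosome, had 1 read, in replicate 5. No gene is named as U4 in the annotation. Of the snRNA genes, 15 begin with AGCTTTGCG, the letters known to open U4, and these had 0 CLIP-seq reads. They had 155 reads over the 6 RNA-seq libraries, all on 2 of the 15 genes. Over all genes of a class, the ratio of CLIP-seq to wild type RNA-seq was 1567 for U5, 877 for U1, 323 for U2, 173 for U6, 107 for C/D snoRNAs, 19.4 for unclassed snoRNAs and 1.60 for H/ACA snoRNAs. The U5 ratio rests on 39 wild type reads over its 10 genes. Reads shared by copies are missing from both assays, so the order of these ratios is uncertain too.

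Among U1 genes, Gm22513 had 22, 22, 20 and 26 reads in replicates 1, 2, 3 and 5, the most of any snRNA or snoRNA gene in each library. These were 20.6% of all reads on the 85 genes and 43.3% of those on U1 genes. Gm24924, in an intron of Ss18, had 5, 5, 4 and 5, and Gm24305 had 3, 3, 3 and 4. The 4 U1 genes that differ from Rnu1a1 by 1 base (these 3 and Gm26244, in an intron of Rock1) had 33, 33, 31 and 36 reads. The 7 genes identical to Rnu1a1, which include it, had 5, 6, 4 and 4, with 6 of the 7 read at all. A read wholly within identical copies has no single place in the genome, and read positions are not in the files used here. Of the 145 windows of 20 bases in Gm22513, 9 occur in no other snRNA, snoRNA or scaRNA gene of the files; in Gm24305 there were 11 and in Gm24924 there were 0. A cluster of 6 U1 genes on chromosome 12 (54696782 to 54738622), which holds Gm22513 and Gm24305, carried 115 reads over the 4 libraries, and a cluster of 6 on chromosome 3 (96359953 to 96488893), with the Rnu1b genes, carried 17.

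Gm22513 also had the most RNA-seq reads of the 26 U1 genes, with 5, 39 and 40 reads in wild type replicates 1, 2 and 3 and 41, 34 and 44 in Mov10-/- replicates 2, 3 and 4. Wild type replicate 1 stood far below the others, and the 5 other libraries overlapped. Of the 26 U1 genes, 12 had no read in any of the 6 RNA-seq libraries. Gm22220, in an intron of 1700104L18Rik, had 2, 2, 5 and 2 CLIP-seq reads and 0 in each RNA-seq library, and Gm24924 had 0, 1 and 1 in wild type and 0 in each Mov10-/- library. Rnu1b1 was the reverse, with 1, 0, 1 and 0 CLIP-seq reads and 7, 8 and 9 reads in wild type RNA-seq; it has 1 identical copy.

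All 5 U2 genes with CLIP-seq reads lay outside other genes, were 191 bases long and matched Rnu2-10 at 95.3% to 100%. Gm25360 had 3, 4, 3 and 11 reads in replicates 1, 2, 3 and 5. Gm22973 had 1, 2, 1 and 9, and Gm25813 had 3, 3, 2 and 4. Gm25360 and Gm22973 were the members of the class in which replicate 5 was well above the other libraries. Gm23971, identical to Rnu2-10 and to 2 further genes, had 1, 1, 0 and 1, and Gm25939 had 1 read, although per length both were at least as high as Gm22973 in wild type RNA-seq (16.2, 10.8 and 8.70 TMM-scaled reads per kilobase per 1000000).

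The 5 U5 genes were 116 bases long and likewise outside other genes on their strand. Gm25099 had 2, 3, 2 and 5 CLIP-seq reads, Gm23143 had 4, 3, 1 and 3, and Gm22265 had 3, 2, 2 and 3. With Gm23287 (1, 1, 1 and 0), Gm25099 and Gm23143 form a cluster on chromosome 4 with 26 of the 39 U5 reads. Gm22265, the least like Rnu5g at 91.5%, had reads in every CLIP-seq library and in RNA-seq only 2, both in Mov10-/- replicate 4. In U6 the reads were scattered: 18 of its 28 genes had 1 CLIP-seq read, 21 had none in RNA-seq, and the highest, Gm25312, had 2, 1, 2 and 1. Gm24705 had 3, 1, 1 and 0 and Gm23095 had 0, 0, 0 and 4. The 28 genes match Rnu6 or a U6 pseudogene at 78.5% to 99.1%, and 7 lie in introns on the same strand. Of the 85 genes, 7 of the 68 snRNA genes and 1 of the 17 snoRNA and scaRNA genes lie opposite another gene. Gm22265, Gm25312 and Rnu5g, opposite Hhat, Catspere2 and Parp16, are among them. Whether counting used strand is not given in the sources used here, so reads of the 2 strands may not be told apart at these genes.

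Unclassed snRNAs had 24 reads, 19 of them on Gm25541 (5, 6, 5 and 3 in replicates 1, 2, 3 and 5). Gm23240 had 2, 1, 1 and 0; it matches Rnu1a1 perfectly but over 57.9% of its length. Gm23463 had 1 read and matches Rnu6 over 65.7%. Counted with U1 and U6, these last would not change the order above.

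**Figure D2:**
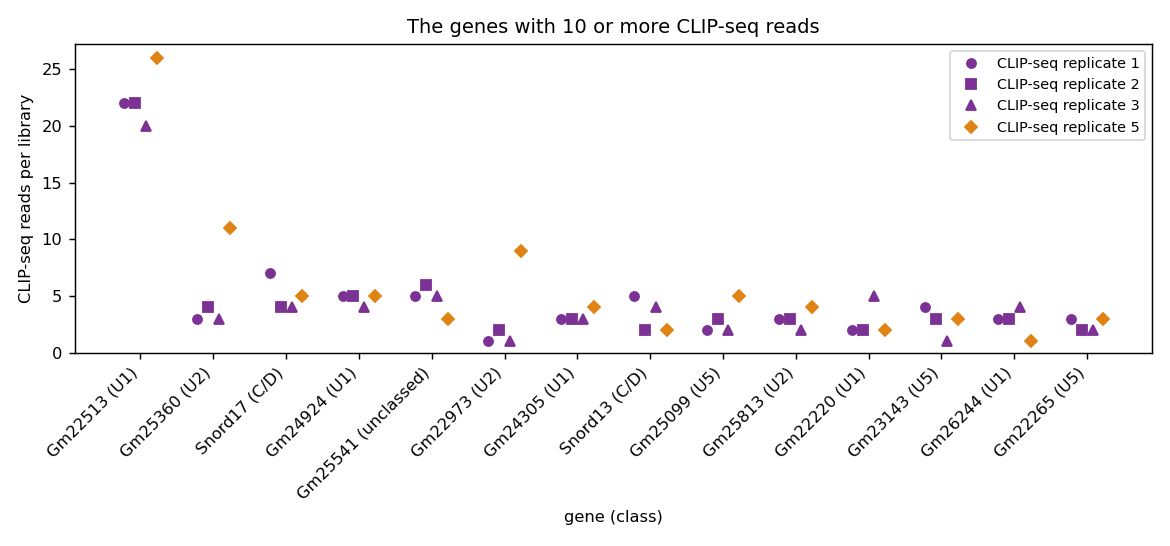
CLIP-seq reads per library (linear axis) of the 14 genes with 10 or more reads in all, 1 point per library. Gm22513 stands at 20 to 26 in every library, and the next highest single value is 11 (Gm25360, replicate 5).

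A pair of C/D snoRNAs led the nucleolar RNAs. Snord17, in an intron of Snx5, had 7, 4, 4 and 5 CLIP-seq reads, and Snord13, which has a gene of its own and takes part in acetylation of 18S ribosomal RNA, had 5, 2, 4 and 2. Snord110, in an intron of Nop56 (a C/D snoRNP protein gene), had 1 in each library. None of these has an identical copy, and every 20-base window of each was distinct among the small RNA genes. The hosts Snx5 and Nop56 had 0 CLIP-seq reads on their exons. Of the 17 snoRNA and scaRNA genes, 12 lay in introns of their own strand, 1 (Gm22486, in Ptcd3) overlapped an exon, and 4 lay outside genes, while 51 of the 68 snRNA genes lay outside genes of their strand. Gm24119, in an intron of Slc25a3, had 2, 2, 1 and 0 reads. Gm22009, the scaRNA in an intron of Kpna4, had 1 CLIP-seq read but 59, 23 and 68 reads in wild type RNA-seq, and Gm25835, in Eif4a1, had 1 CLIP-seq read and 15, 8 and 28.

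Of the 85 genes with CLIP-seq reads, 47 (55.3%) had a read in at least 1 of the 6 RNA-seq libraries, as did 519 of the 2858 other genes of the biotypes (18.2%). Within classes these shares were 53.8% and 27.9% in U1, 25.0% and 19.0% in U6, and 100% and 23.8% in C/D. These are counts of genes, many of them copies of each other, and they were not tested.

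The comparison of genotypes addresses whether the level of these RNAs differed in testes without MOV10. No gene among the 85 passed the test. Most were too low for it: 18 passed the filter (more than 1 RPM in 3 or more RNA-seq libraries), 67 did not, and 38 had no RNA-seq read at all. At a fold change over 2 and an edgeR adjusted p under 0.05, 0 of 18 were called, against 0.00494% of 20240 genes (1 gene, Mov10). DESeq2 called 0 as well, but it gave no adjusted p for Gm23143 and Gm25813 at least, so these could not be called. Over the whole table DESeq2 called 1039 of 20240 genes, 51 of them higher in Mov10-/-. The lowest adjusted p was 0.154 with edgeR, for Gm23143, and 0.128 with DESeq2 among the genes given one. At an unadjusted p under 0.05, edgeR gave 8 of 18 higher in Mov10-/- and 0 lower, against 5.57% and 11.9% of all genes, and DESeq2 gave 5 of 18 higher and 0 lower, against 5.54% and 11.9%. Leaving out 1 library moved the 8 to 4 of 18 without wild type replicate 1, 4 of 16 without wild type replicate 2, 10 of 18 without wild type replicate 3, 4 of 14 without Mov10-/- replicate 2, 2 of 13 without Mov10-/- replicate 3 and 7 of 14 without Mov10-/- replicate 4.

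The filter bears on these counts. Of the 18 genes, 3 (Gm25541, Gm25813 and Gm23143) were above 1 RPM in Mov10-/- libraries only, and 11 in fewer wild type than Mov10-/- libraries, so they are no support for a direction. The 11 also hold Gm22973, Snord13 and Gm22748, and 6 of the 18 were above 1 RPM in all 6 libraries. The difference was positive in 17 of 18, with a median of 1.14 on the log2 scale, against 0.03 over all genes tested. The 54 genes of the same biotypes without a CLIP-seq read that passed the filter had a median of 1.15, with 49 positive. Of these 54, 22 were higher at an unadjusted p under 0.05, 0 lower and 0 called. The same filter chose the 54, and how many passed through Mov10-/- libraries only was not counted, so they too are no support for a direction. In 9 of 18 genes every Mov10-/- library lay above every wild type library (11.9% of all genes), and in 0 of 18 below (14.1%). The 9 include the 3 genes that passed through Mov10-/- libraries only, so the filter can raise that count. In bulk tissue, a change in the number of cells that hold an RNA and a change in its level per cell cannot be told apart.

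**Figure D3:**
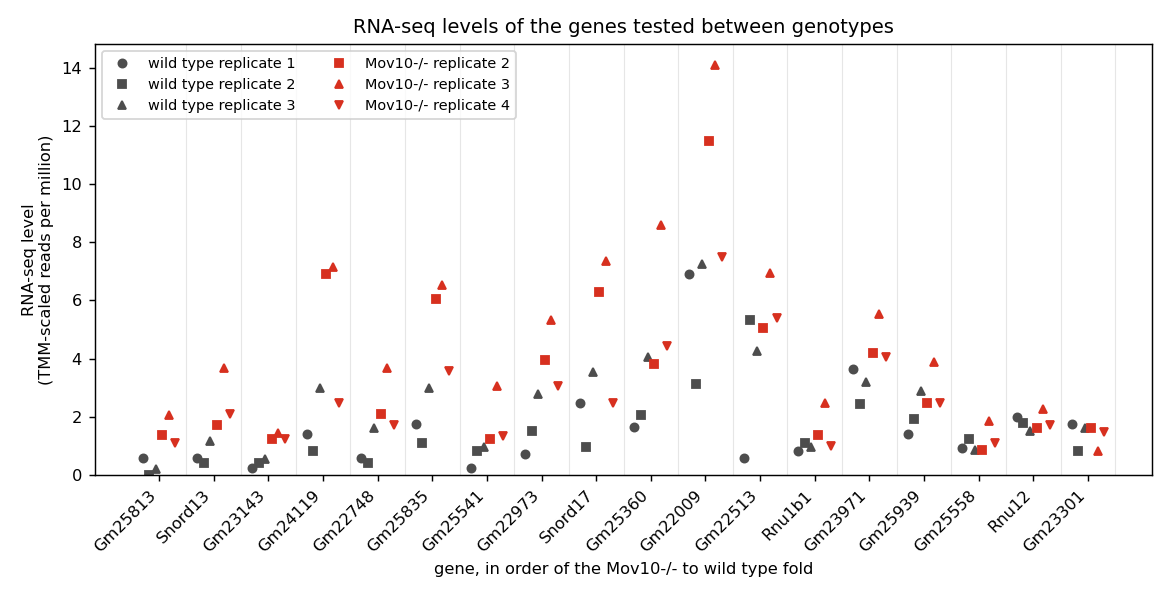
RNA-seq level (TMM-scaled RPM, linear axis) of the 18 genes tested, in order of fold, 1 point per library. Mov10-/- replicate 3 is the highest library for 17 of the 18 genes, and wild type replicates 1 or 2 are often the lowest.

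Among the spliceosomal RNAs tested, Gm23143 (U5) had 2, 3 and 5 reads in wild type and 10, 7 and 10 in Mov10-/- libraries, with no overlap (log2 difference 1.67 ± 0.45 SE, edgeR adjusted p = 0.154). Among U2 genes, Gm25813 had 5, 0 and 2 against 11, 10 and 9, which also did not overlap (2.35 ± 0.74, edgeR adjusted p = 0.182). Both Gm23143 and Gm25813 passed the filter through Mov10-/- libraries only, so their lack of overlap is no support for a direction. Gm22973 had 6, 11 and 26 against 32, 26 and 25; scaled to library size the lowest Mov10-/- level (3.07 RPM) was above the highest wild type level (2.78 RPM) (1.28 ± 0.51, edgeR adjusted p = 0.255). Gm25360 had 14, 15 and 38 against 31, 42 and 36, and overlapped (1.09 ± 0.48, edgeR adjusted p = 0.299). Gm23971 and Gm25939 differed by 0.55 ± 0.32 and 0.48 ± 0.40.

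Gm22513 (U1) differed by 0.77 ± 0.65, wild type replicate 1 being the low library, and Rnu1b1 (U1) by 0.69 ± 0.45. Gm25541 had 2, 6 and 9 reads in wild type and 10, 15 and 11 in Mov10-/- libraries, with no overlap once scaled (1.41 ± 0.60, edgeR adjusted p = 0.279). Gm25541 also passed the filter through Mov10-/- libraries only. Rnu12 had 17, 13 and 14 against 13, 11 and 14, and its difference of 0.07 ± 0.34 lay within the spread between libraries. Gm25558, a U6 copy in Ppp2r1b, had 8, 9 and 8 against 7, 9 and 9 (0.29 ± 0.43).

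Of the nucleolar RNAs, Snord13 had 5, 3 and 11 reads in wild type and 14, 18 and 17 in Mov10-/- libraries, with no overlap (1.71 ± 0.51, edgeR adjusted p = 0.173). Snord13 was above 1 RPM in 1 wild type and 3 Mov10-/- libraries, so its lack of overlap is no support for a direction. Gm25835 had 15, 8 and 28 against 49, 32 and 29 and did not overlap once scaled (1.44 ± 0.45, edgeR adjusted p = 0.182). Gm24119 had 12, 6 and 28 against 56, 35 and 20, so that Mov10-/- replicate 4 lay among the wild type libraries (1.63 ± 0.59, edgeR adjusted p = 0.220). Snord17 had 21, 7 and 33 against 51, 36 and 20 and likewise overlapped (1.18 ± 0.57, edgeR adjusted p = 0.333). Gm22748, in Odc1, differed by 1.45 ± 0.57 and Gm22009 by 0.92 ± 0.41, both with no overlap. Gm23301, in Rpl17, was the 1 gene with a negative difference (-0.08 ± 0.45). None of the host mRNAs was called: Snx5 differed by 0.18 ± 0.13, Slc25a3 by 0.14 ± 0.09, Eif4a1 by 0.24 ± 0.12, Odc1 by 0.11 ± 0.19 and Kpna4 by -0.20 ± 0.11.

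Other features of the libraries also differed, some with overlap between genotypes. Reads on ribosomal RNA genes made up 0.00216%, 0.00167% and 0.00445% of reads in wild type libraries and 0.00534%, 0.0109% and 0.00435% in Mov10-/- libraries, and the Mov10-/- library with the highest share, replicate 3, was also the highest for 17 of the 18 genes. That library had the fewest reads on genes and 57.2% of its reads did not align, against 26.5% to 35.9% in the others. Spermatid markers (7 genes, among them Acrv1, Tnp1 and Prm2) summed to 61.2 to 323 RPM in wild type and 20.6 to 55.1 in Mov10-/- libraries, with wild type replicate 2 the highest; 6 of 6 tested had a negative difference. Sertoli markers summed to 196 to 287 and 295 to 336 RPM, peritubular markers to 261 to 341 and 349 to 445, Leydig markers to 231 to 421 and 308 to 442, macrophage markers to 74.9 to 136 and 101 to 169, and markers of other tissues to 46.0 to 81.8 and 47.6 to 62.0. The part of each in the small RNA levels was not tested.

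No gene for a protein partner of these RNAs passed the test. Of 107 listed genes 106 were tested and 0 were called by edgeR or DESeq2. Over all 20240 genes tested edgeR called 0.00494%, so 0 with edgeR is near the share of all genes. DESeq2 called 1039 of the 20240, 51 of them higher in Mov10-/-, so 0 with DESeq2 is below its share. That gap was not tested. At an unadjusted p under 0.05 with edgeR, 2 were higher and 1 lower, against 5.57% and 11.9% of all genes. The median difference of the partner genes was 0.07. Of the Sm core proteins, which form the ring on U1, U2, U4 and U5, 0 of 8 were called (differences 0.0046 to 0.24), as of the 20 U4/U6 and U5 proteins (-0.09 to 0.40). The 4 core C/D proteins, with the methyltransferase Fbl and Nop56, ranged from -0.0012 to 0.31, and the 7 H/ACA proteins from -0.04 to 0.25. The 5 with the smallest p were Ddx20, of the SMN complex that loads Sm rings (-0.44 ± 0.16, edgeR adjusted p = 0.231), Ints1 and Ints3, of the Integrator complex that cleaves snRNA 3′ ends (0.43 ± 0.17 and 0.23 ± 0.09), Snrpb, an Sm protein (0.24 ± 0.11), and Snapc2, of the complex that starts snRNA transcription (0.27 ± 0.12). In CLIP-seq all 107 held 26 reads over the 4 libraries.

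**Figure D4:**
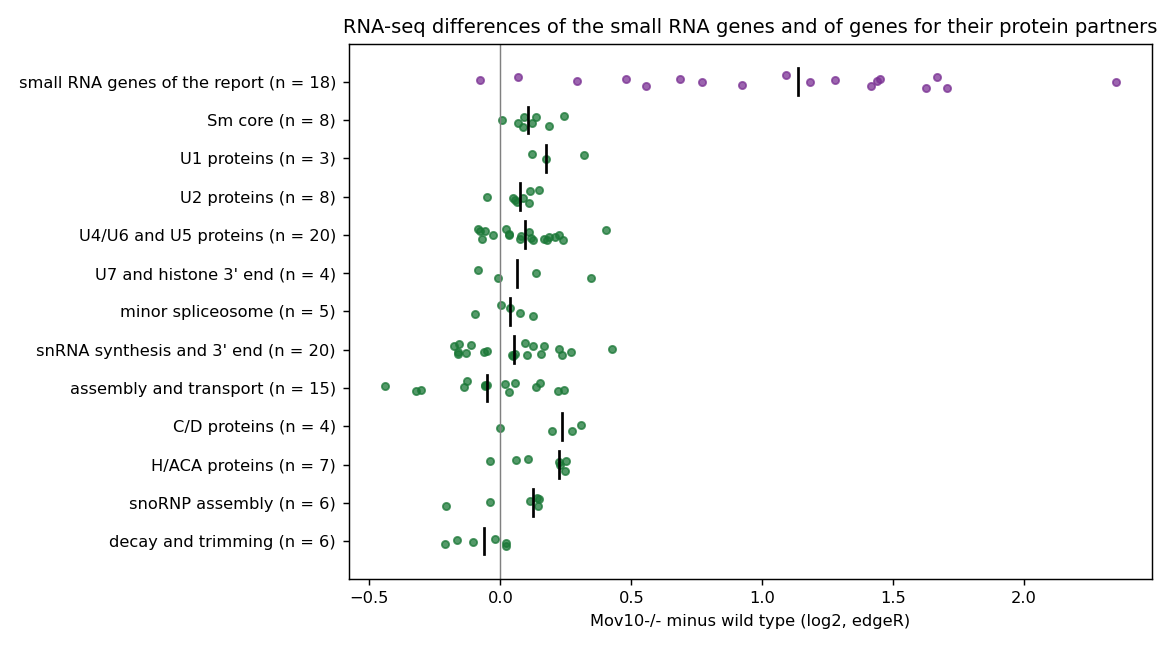
Mov10-/- minus wild type difference (log2, edgeR) of the 18 small RNA genes tested and of 106 genes for their protein partners by group, 1 point per gene, bars at medians. The small RNA genes spread from -0.08 to 2.35 and the protein genes from -0.44 to 0.43; none of these genes passed the test.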

How the data were processed

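MOV10 CLIP-seq (4 libraries) and poly(A) RNA-seq (3 wild type, 3 Mov10-/-) of P21 mouse testis were analysed. The authors deposited raw htseq-count counts per gene; per the study's methods RNA-seq reads were mapped to mm10 with STAR and counted on Ensembl v99, and CLIP-seq processing was as in an earlier study. Whether counting used strand is not given in the sources used here. Lines that name no gene were left out of library sizes. IDs were joined to GENCODE M21 (181 of 55421 unmatched). Classes used blastn 2.17.0. Genotypes were tested with edgeR 4.0.16 (quasi-likelihood, TMM; over 1 RPM in 3 or more RNA-seq libraries; Benjamini-Hochberg over all genes), tested on simulated data; DESeq2 1.42.0 (R 4.3.3), other size factors, no filter, a replicate block and leaving out libraries were alternatives. RNA-seq libraries came from separate pairs of testes per the study's methods. No source used here says that CLIP-seq libraries came from separate animals. Named genes were the 3 with most CLIP-seq reads per class, the 10 highest in RNA-seq, the 5 smallest p, and the markers; others were named after their values were seen. Some gene sequences are not reported here. The genes and lists were chosen with earlier results of these data known.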

Additional observations from a re-analysis of the deposited data

How the results depend on the processing

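The count of small RNA genes called between genotypes and that of partner genes stayed at 0 under DESeq2, DESeq2 size factors, no filter on low counts (47 small RNA genes tested), the replicate block and without each RNA-seq library. The range without a library was 0 to 0 for each. Over the whole table edgeR called 1 gene with DESeq2 size factors, 10 with no filter, 63 with the replicate block and 0 or 1 without a library. DESeq2 called 1039. Where edgeR called so few genes, a count of 0 does not set these genes apart from the others. The lowest adjusted p over the small RNA genes ranged from 0.0984 to 0.420. Of 138 recomputed differences of 15 named genes 136 kept their direction and side. Among the 136, the DESeq2 values of Gm23143 and Gm25813 had no adjusted p, so these show direction only. Gm23143, Gm25541 and Gm25813 had no value without each Mov10-/- library or with the replicate block. Rnu12 turned to -0.050 without wild type replicate 3 and -0.075 without Mov10-/- replicate 3, with 0.16 the highest value without 1 library. Mov10 ranged from -2.08 to -1.95 without 1 library and was below the threshold of the test without Mov10-/- replicate 3 (adjusted p = 0.106) and replicate 4 (edgeR adjusted p = 0.143). The share of CLIP-seq reads was 2.72% to 2.86% without a CLIP-seq library and 0.369% with reads outside genes and ambiguous reads in the total; the ratio to wild type RNA-seq was 668 to 910 without a library, 142 with that total and 374 over Mov10-/- RNA-seq. The counts of 9 and 0 genes with no overlap were 9 to 12 and 0 to 0 without a library, 10 and 0 without TMM and 11 and 0 over the 47 genes with a read, alternatives chosen after seeing the data.

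The labels share replicate numbers 2 and 3 between genotypes, and the deviations of same-numbered libraries correlated at -0.463 and -0.344. The numbers were therefore not used as pairs in the main fit. Libraries of unlike number were not compared, so these 2 correlations cannot exclude a pairing. With the replicate block over these 4 libraries, 63 genes were called in place of 1, of which 0 were small RNA genes (13 tested) or partners, and Mov10 differed by -1.95. At this depth 1 CLIP-seq read is 203 to 294 RPM, so in any 1 library a gene below that level can go unread.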
